A study of Oryctolagus cuniculus with 12 samples.

Results

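Fast skeletal muscle genes are 10 genes that encode the contractile, calcium handling and energy enzymes of fast twitch muscle fibers. They are MYH1, MYL1, ATP2A1, RYR1, CASQ1, TNNI2, ACTN3, CKM, PYGM and ENO3. On the rabbit array, 26 of 43603 probes carried a RefSeq accession that matched these symbols, and the 10 genes were among 1264 with a symbol and a probe. ATP2A1 had 10 probes, CASQ1 had 5, MYH1 had 4, and each of the others had 1.

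The study asked how gene expression in the thoracic aorta differs with coarctation of the aorta (CoA) and after its correction. RNA came from a 4 mm ring of the aorta of male New Zealand white rabbits aged 32 weeks, with 1 array per rabbit and 4 rabbits per group. Control rabbits were non-experimental, so none had a sham operation. CoA rabbits had a permanent silk suture around the aorta and Corrected rabbits a Vicryl suture that degrades, after which the aorta widened again but stayed somewhat narrowed. In both, a gradient of 20 mmHg was imposed at about 10 weeks of age. Corrected replicate 3 was left out by the study for its different distribution of intensities, so 4 Control, 4 CoA and 3 Corrected arrays entered the tests, and its values are given apart.

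In fast fibers, myosin heavy chains such as that of MYH1, with light chains such as that of MYL1, pull on thin filaments whose troponin (with TNNI2) responds to calcium, and alpha-actinin (ACTN3) anchors these filaments at the Z disc. RYR1 releases calcium from the sarcoplasmic reticulum, CASQ1 stores it there and ATP2A1 pumps it back, while CKM, PYGM and ENO3 supply energy through creatine phosphate, glycogen and glycolysis. The muscle of the aortic wall is smooth muscle, which uses other isoforms of most of these proteins.

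All signals below are log2 values of the background-subtracted intensity, quantile normalized over the 12 arrays, and a signal counts as above background where the scanner software flagged it so. A gene is described by its brightest probe unless stated, and levels of different probes are not compared. From 45.6% (Corrected replicate 3) to 77.7% (Control replicate 3) of spots were well above background on an array, and no spot was saturated. The smooth muscle list (MYH11 and others, 9 genes measured) was above background on every array used, with a summed signal of 100500 to 215700 in Control, 119400 to 238500 in CoA and 200100 to 240000 in Corrected, as the label aorta implies. The 4 CoA arrays shared a scan time that no other array had, so CoA and that scan time cannot be told apart. Arrays of 1 scan time are taken below as 1 slide, an assumption that was not tested. The arrays of Control replicates 3 and 4 were nearly alike over all probes and were kept as separate samples, although MYL1 differed by 0.92 between them.

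The 10 genes were dim on most arrays, and where they were bright it was mostly on a few arrays rather than in a whole group. A partial exception was MYH1, which was higher on every Corrected array used than on any Control or CoA array. Corrected replicate 4 was so by little (5.28, against 5.13 on Control replicate 1) and not on every MYH1 probe. On Corrected replicate 3, left out, MYH1 was at 4.31 and not above background. MYH1, MYL1 and ATP2A1 were highest on Corrected replicate 2, with Corrected replicate 1 next. CKM and ENO3 were highest on CoA replicate 2, and PYGM and TNNI2 on Control replicate 1. Since RNA was taken from whole rings, more cells of a type and more RNA per cell cannot be told apart.

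**Figure D1:**
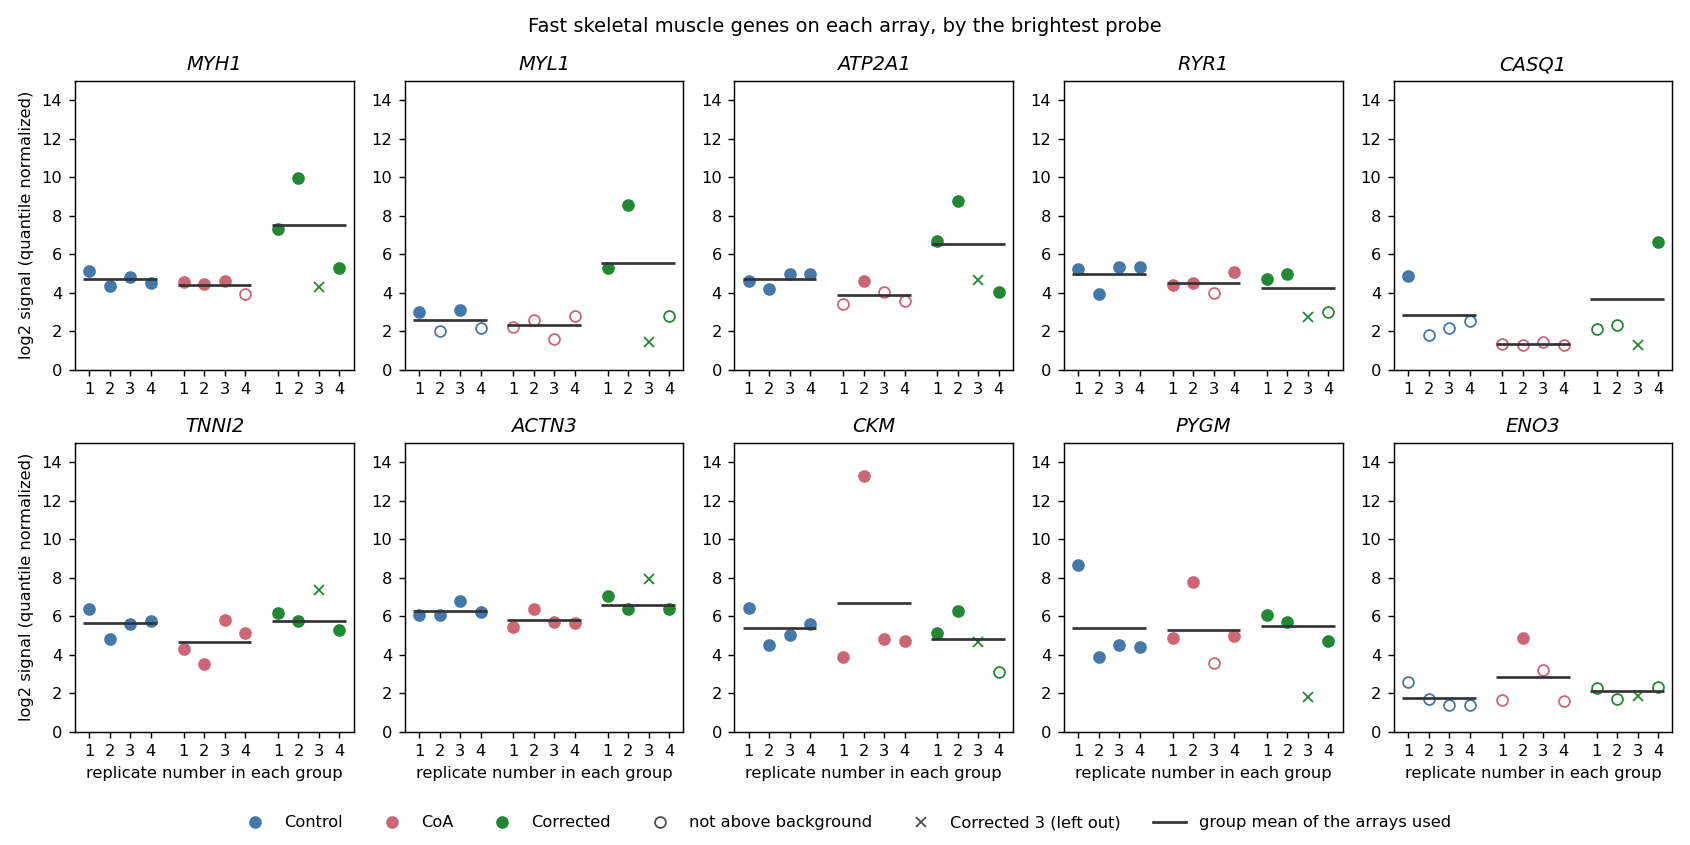
Log2 signal (quantile normalized, vertical axis) of the brightest probe of each of the 10 genes on each array, by group and replicate number. Filled circles are above background, open circles are not, crosses show Corrected replicate 3, and bars are means of the arrays used. MYH1, MYL1 and ATP2A1 stand out on Corrected replicates 1 and 2, and CKM stands at 13.28 on CoA replicate 2.

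MYH1, a fast myosin heavy chain, was higher in Corrected than in Control and CoA. Its log2 signal was 5.13, 4.33, 4.82 and 4.52 on the Control arrays, 4.56, 4.45, 4.61 and 3.93 on the CoA arrays, and 7.33, 9.96 and 5.28 on Corrected replicates 1, 2 and 4. Each Corrected array thus lay above every Control and CoA array, but Corrected replicate 4 did so by little. Means were 4.70 ± 0.35 (SD, n = 4) in Control, 4.39 ± 0.31 (n = 4) in CoA and 7.52 ± 2.35 (n = 3) in Corrected. The difference of Corrected from Control was 2.82 on the log2 scale (SE 0.81, limma adjusted p = 0.442), or 7.07-fold, and CoA differed from Corrected by -3.14 (SE 0.81, adjusted p = 1.00). An exact permutation test, two-sided, gave p = 0.0286 for both, the smallest that 4 against 3 arrays allow. Without Corrected replicate 2 the differences were 1.60 and -1.92, still past 2-fold. With Corrected replicate 3 included the difference of Corrected from Control was 2.02 (limma adjusted p = 0.383), and its unadjusted p was no longer under 0.05. CoA differed from Control by -0.31 (SE 0.75, limma adjusted p = 0.877), less than the spread between arrays.

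The other 3 MYH1 probes shared the highest array but not the whole order. All 4 probes were highest on Corrected replicate 2 (8.57 to 10.83), and 3 of 4 were next highest on Corrected replicate 1 (5.70 to 8.36 over the 4 probes). On Corrected replicate 4 the 4 probes ranged from 4.04 to 6.56, and on Corrected replicate 3 from 3.44 to 5.31, where none was above background. Over the 4 probes the log2 difference of Corrected from Control was 2.82 to 3.98, and that of CoA from Corrected was -5.96 to -3.14, while that of CoA from Control ran from -1.99 to 0.17. On probe A_04_P002673 Corrected replicate 4 lay below 3 of the 4 Control arrays, and on A_04_P004576 it lay above Corrected replicate 1. On A_04_P004576 (5.92) and A_04_P002674 (6.56) Corrected replicate 4 lay above every Control and CoA array, the highest of which gave 3.98 and 5.37. Probe A_04_P002674 was not above background on any of the 4 CoA arrays and was so on all 4 Control and 3 Corrected arrays. Its signal in Corrected was at least 26.7-fold higher than in CoA, with means of 8.46 and 2.50, and in Control at least 1.70-fold higher than in CoA, with a mean of 4.49. Without Corrected replicate 2 the first of these became at least 11.7-fold, and without Corrected replicate 4 at least 51.6-fold. This probe was above background on 7 arrays of 12 and so was not tested, and without the detection filter its adjusted p was 0.457 and 0.318 (limma). RefSeq lists MYH4, another fast myosin heavy chain, as a synonym of this gene, so the probes may not tell the fast myosin heavy chains apart.

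MYL1, the essential light chain of fast myosin, had 1 probe, which was above background on only 4 arrays of 12 and was not tested. Its log2 signal was 2.97, 2.01, 3.09 and 2.17 in Control, 2.22, 2.57, 1.57 and 2.81 in CoA, and 5.30, 8.57 and 2.79 on Corrected replicates 1, 2 and 4. Corrected replicates 1 and 2 were again the 2 highest, while Corrected replicate 4 lay among the other groups. It was not above background on any CoA array, and its signal in Corrected was at least 3.57-fold higher than in CoA, with means of 5.56 ± 2.90 (SD, n = 3) and 2.29 ± 0.54 (n = 4). That bound rested on Corrected replicate 2, without which it was at least 1.25-fold, and it was at least 9.29-fold without Corrected replicate 4. From the same model without the detection filter, Corrected lay above Control by 2.99 (SE 1.04, limma adjusted p = 0.480) and CoA differed from Corrected by -3.27 (SE 1.04, adjusted p = 0.900). Without Corrected replicate 2 the difference of Corrected from Control was 1.49 and its unadjusted p no longer under 0.05.

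ATP2A1, the calcium pump of fast fibers, followed the same arrays. It gave log2 signals of 4.61, 4.18, 4.97 and 4.99 in Control, 3.39, 4.59, 4.02 and 3.57 in CoA, and 6.71, 8.78 and 4.04 on Corrected replicates 1, 2 and 4. Corrected replicate 4 thus lay below all 4 Control arrays, and the Corrected group overlapped both others. This probe was above background on 8 of 12 arrays, the least that entered the test, and on only 1 of the 4 CoA arrays. Most CoA values in the differences below were thus not above background. Corrected replicate 4 lay close to the lowest signal flagged above background on that array, 3.82. CoA differed from Corrected by -2.62 (SE 0.84, limma adjusted p = 1.00, exact two-sided permutation p = 0.0571). Corrected lay above Control by 1.82 (SE 0.84, limma adjusted p = 0.603), and CoA lay below Control, at -0.79 (SE 0.78, adjusted p = 0.652). These SEs draw on the spread in all groups, with SDs of 0.38 in Control, 0.54 in CoA and 2.37 in Corrected. With only Control and CoA fitted, the SE of their difference was 0.33 (limma adjusted p = 0.291). Leaving out Corrected replicate 2 moved the difference of CoA from Corrected to -1.48, and leaving out Corrected replicate 4 moved it to -3.85. The difference of Corrected from Control was 0.69 without Corrected replicate 2 and 3.06 without Corrected replicate 4.

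Of the 10 ATP2A1 probes, 9 gave the same order of arrays within Corrected and 1 was never above background. The 9 probes gave 8.70 to 8.82 on Corrected replicate 2, 6.63 to 6.79 on Corrected replicate 1 and 2.97 to 4.30 on Corrected replicate 4. On the Control arrays all 9 were above background, at 4.17 to 5.45. On CoA replicates 1 and 4 none of them was, and on CoA replicate 2 all were. On probes A_04_P002111 and A_04_P031751 every CoA array lay below every Control array, at differences of -1.35 and -1.32, while on the other probes these groups overlapped. The difference of CoA from Corrected was past 2-fold with an unadjusted p under 0.05 for 8 of the 10 probes, without the detection filter, and the probes share 1 gene and are no replicates of each other.

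**Figure D2:**
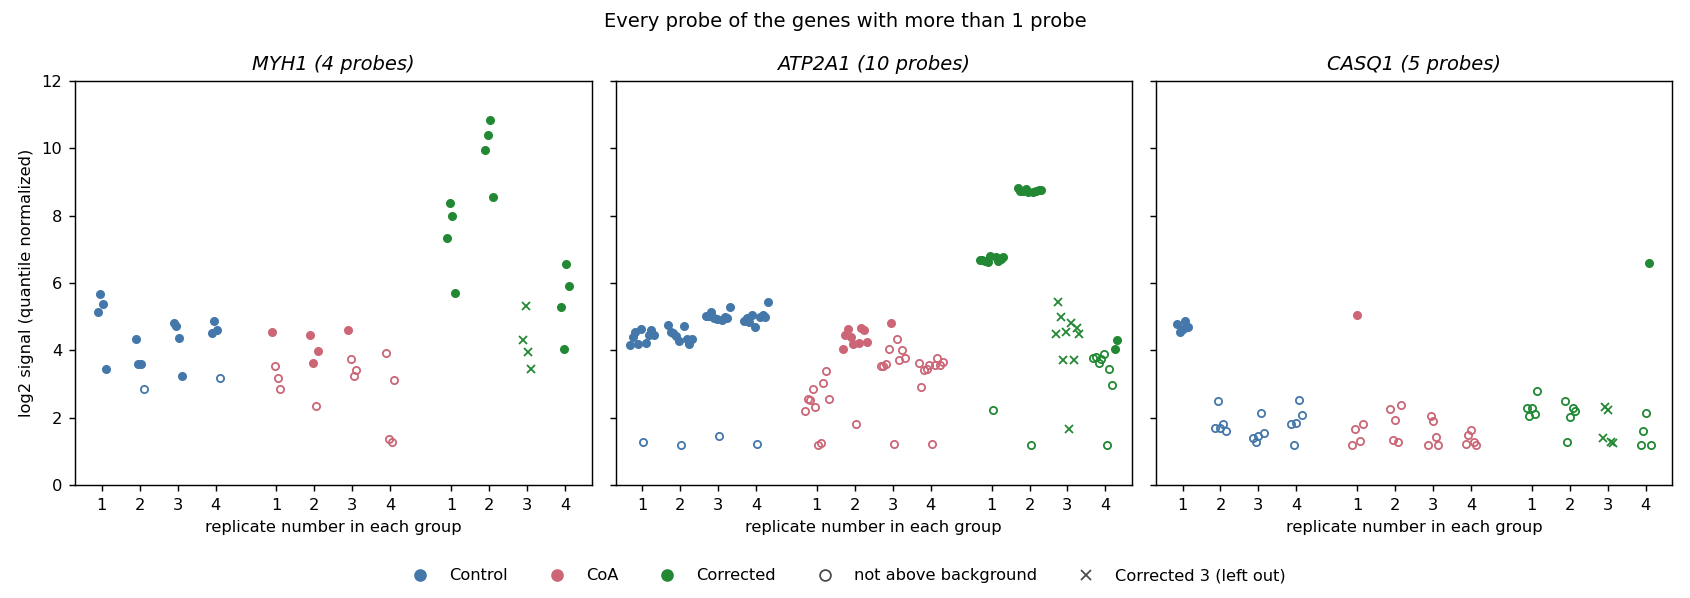
Log2 signal (quantile normalized, vertical axis) of every probe of MYH1, ATP2A1 and CASQ1 on each array, by group and replicate number, with filled circles above background, open circles not, and crosses for Corrected replicate 3. The 9 ATP2A1 probes that were ever above background lie close together at 8.70 to 8.82 on Corrected replicate 2, while CASQ1 has single bright probes on CoA replicate 1 and Corrected replicate 4.

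RYR1, the calcium release channel, did not share this pattern. Its log2 signal was 5.21, 3.90, 5.33 and 5.33 in Control, 4.39, 4.52, 3.99 and 5.08 in CoA, and 4.68, 4.97 and 2.99 in Corrected. Corrected replicates 1 and 2 lay within the range of Control, and Corrected replicate 4 was the lowest array and not above background. The differences were -0.45 (SE 0.48) for CoA vs Control, -0.73 (SE 0.52) for Corrected vs Control and 0.28 (SE 0.52) for CoA vs Corrected, and none passed the test (limma, lowest of the 3 adjusted p 0.685).

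CASQ1, which stores calcium in the reticulum, was above background on a single array with all its probes. That array was Control replicate 1, where the 5 probes gave 4.55 to 4.87. On the other arrays only 2 spots were above background, 1 probe at 5.05 on CoA replicate 1 and another, the brightest, at 6.61 on Corrected replicate 4. The remaining 4 probes on Corrected replicate 4 were not above background, so the probes of this gene disagree there. No CASQ1 probe was tested. Without the detection filter the brightest probe was lower in CoA than in Corrected, at -2.34 (SE 1.05, limma adjusted p = 0.900), while the other 4 probes gave -0.52 to 0.48. Without Corrected replicate 4 the brightest probe gave -0.87.

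TNNI2, the fast troponin I, was above background on all 12 arrays. Log2 signals were 6.39, 4.81, 5.61 and 5.76 in Control, 4.29, 3.50, 5.78 and 5.12 in CoA, and 6.19, 5.73 and 5.28 in Corrected. The CoA arrays spread from the lowest of all 11 to above the Control median. CoA lay below Control, at -0.97 (SE 0.49, limma adjusted p = 0.391), and below Corrected, at -1.06 (SE 0.53, adjusted p = 1.00), and Corrected differed from Control by 0.09 (SE 0.53). The first of these passed 2-fold with an unadjusted p under 0.05 when Control replicate 2 or CoA replicate 3 was left out, at -1.25 and -1.34.

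ACTN3, the alpha-actinin of fast fibers, was also above background on all 12 arrays and varied least of the 10 genes, by 3.07-fold over the 11 arrays. On the log2 scale it gave 6.07, 6.05, 6.77 and 6.21 in Control, 5.42, 6.37, 5.69 and 5.63 in CoA, and 7.04, 6.37 and 6.40 in Corrected. Every Corrected array lay above every CoA array, the closest pair being Corrected replicate 2 and CoA replicate 2, at 6.37 each. CoA differed from Corrected by -0.82 (SE 0.32, limma adjusted p = 1.00), or 1.77-fold, which is under the 2-fold criterion. Without CoA replicate 2 the difference was -1.02, past 2-fold. CoA differed from Control by -0.50 (SE 0.29, adjusted p = 0.450).

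CKM, the creatine kinase of muscle, held the widest range, 1149-fold over the 11 arrays. Its log2 signal was 6.43, 4.52, 5.03 and 5.61 in Control, 3.87, 13.28, 4.79 and 4.71 in CoA, and 5.10, 6.28 and 3.11 in Corrected. CoA replicate 2 stood far above every other array, and the other 3 CoA arrays lay below the Control median. Before normalization the intensity was 7564 on CoA replicate 2 and 6.65 to 182.6 on the other arrays, Corrected replicate 3 included. CoA lay above Control by 1.26 (SE 1.74, limma adjusted p = 0.762), which became -0.94 without CoA replicate 2 (adjusted p = 0.558).

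PYGM, the glycogen phosphorylase of muscle, stood out on that array too and on 1 Control array. Its log2 signal was 8.67, 3.90, 4.50 and 4.38 in Control, 4.88, 7.75, 3.57 and 4.99 in CoA, and 6.05, 5.67 and 4.71 in Corrected. Control replicate 1 and CoA replicate 2 were the 2 highest arrays. The group means of 5.36, 5.30 and 5.48 differed by less than the spread within Control (SD 2.22) or CoA (SD 1.76). Leaving out Control replicate 1 turned the difference of CoA from Control from -0.06 to 1.04 (limma adjusted p = 0.664).

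ENO3, the enolase of muscle, was above background on 1 array of 12, and that array was again CoA replicate 2, at 4.88. The other signals ran from 1.40 to 3.20, so ENO3 was not tested. Its signal in CoA was at least 1.06-fold higher than in Control, with means of 2.82 and 1.76 and with 1 of the 4 CoA arrays above background. RefSeq lists ENO1, the enolase of most tissues, as a synonym of this rabbit gene.

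Seen by array, the genes fell into sets, and no group had the same set raised on all its arrays. Counting genes above background and more than 4-fold above their own median over the 11 arrays, Corrected replicates 1 and 2 each had 3 of the 10 (MYH1, MYL1 and ATP2A1), CoA replicate 2 had 3 (CKM, PYGM and ENO3), Control replicate 1 had 2 (CASQ1 and PYGM) and Corrected replicate 4 had 1 (CASQ1). The other 6 arrays had 0. MYL1, CASQ1 and ENO3 in these counts were not tested, and their medians were dim, at 2.79, 2.10 and 1.69. The shares that follow are over tested probes only, so the sets are unlike. Of all 27283 tested probes, 0.938% and 1.01% were that far above their median on Corrected replicates 2 and 1, 3.78% on CoA replicate 2, 1.73% on Control replicate 1 and 2.13% on Corrected replicate 4. On Corrected replicate 2, MYH1, MYL1 and ATP2A1 were 5.35, 5.78 and 4.19 above their medians while the other 7 genes were 0.00 to 1.25 above theirs. On CoA replicate 2, CKM was 8.25 above its median while MYH1, MYL1 and ATP2A1 were -0.16, -0.23 and 0.00 from theirs.

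**Figure D3:**
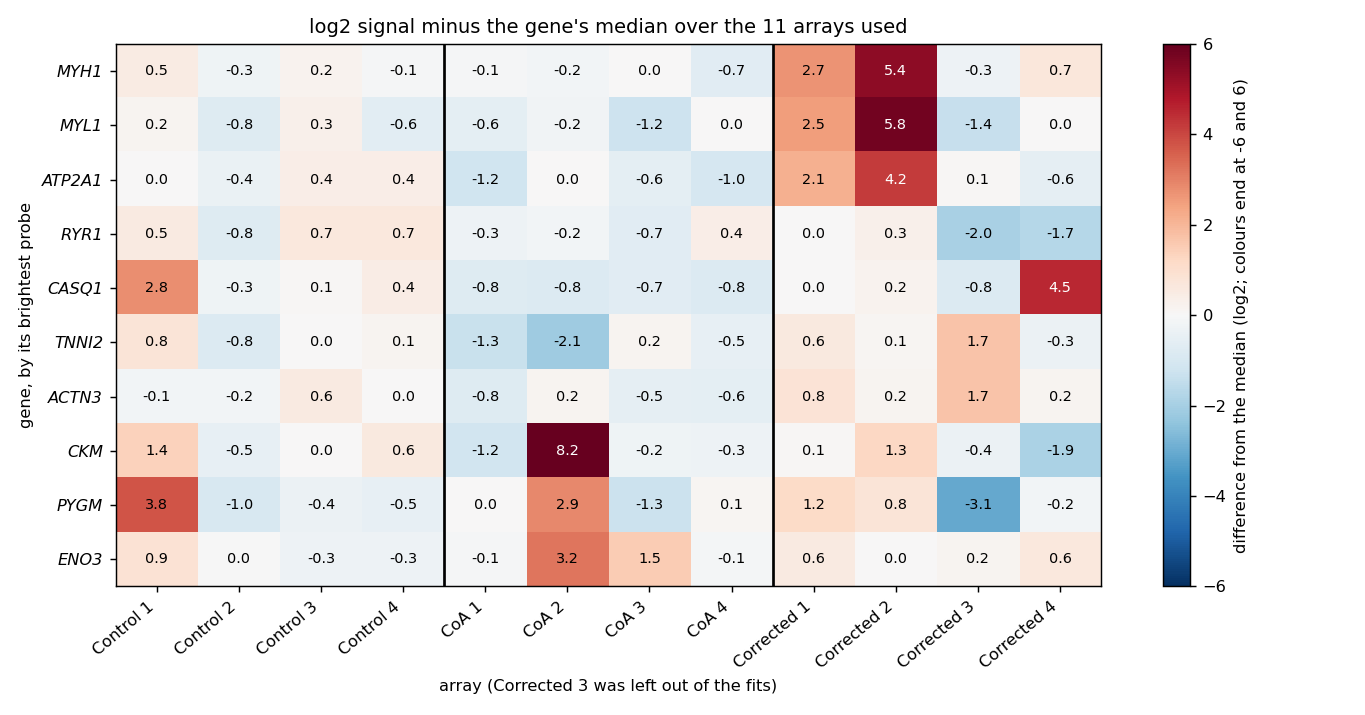
Log2 signal of each gene (rows, brightest probe) on each array (columns) minus the gene's median over the 11 arrays used, with colors that end at 6 above and 6 below. The raised cells form separate blocks, MYH1, MYL1 and ATP2A1 on Corrected replicates 1 and 2 and CKM, PYGM and ENO3 on CoA replicate 2.

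In the group comparisons a gene was counted where its brightest probe was tested and differed over 2-fold with an unadjusted limma p under 0.05. The brightest probes of 7 of the 10 genes were tested, which leaves out MYL1, CASQ1 and ENO3. In CoA vs Control, 0 of the 7 passed, where 8.81% of the 27283 tested probes did, and 0 of the 7 had an unadjusted p under 0.05 in limma. That model shares 1 estimate of spread over the groups. With only Control and CoA fitted, ATP2A1 had an unadjusted limma p of 0.039, at -0.79, still under 2-fold. In Corrected vs Control 1 passed, MYH1, higher in Corrected, where 2.41% of tested probes passed as higher (5.40% in either direction). In CoA vs Corrected 2 passed, MYH1 and ATP2A1, lower in CoA, where 1.33% of tested probes passed as lower (2.76% in either direction). For ATP2A1 only 1 of the 4 CoA arrays was above background. The study also singled out these 2 genes from the same arrays, so this is not independent evidence of their direction. At a Benjamini-Hochberg adjusted p under 0.05, 0 of the 7 genes passed in any of the 3 comparisons, as did 0 of all tested probes. The unadjusted limma p was under 0.05 for 3880, 2283 and 1175 of the 27283 tested probes. The last count, in CoA vs Corrected, is fewer than a threshold of 0.05 gives by chance alone. The 3 comparisons share their arrays in pairs and are not independent of each other. The p-values measure the spread between arrays of 1 rabbit each, which also holds any effect of the array and its scan time.

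Without the detection filter all 10 genes could be counted. Corrected vs Control then had 2 genes higher in Corrected, MYH1 and MYL1, beside 2.44% of all probes. CoA vs Corrected had 4 lower in CoA, MYH1, MYL1, ATP2A1 and CASQ1, beside 1.77% of all probes, the last of these resting on 1 spot. Groups did not overlap for 1 of the 7 tested genes in Corrected vs Control (MYH1, beside 8.86% of tested probes), for 2 in CoA vs Corrected (MYH1 and ACTN3, beside 4.20%) and for 0 in CoA vs Control (beside 10.2%).

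**Figure D4:**
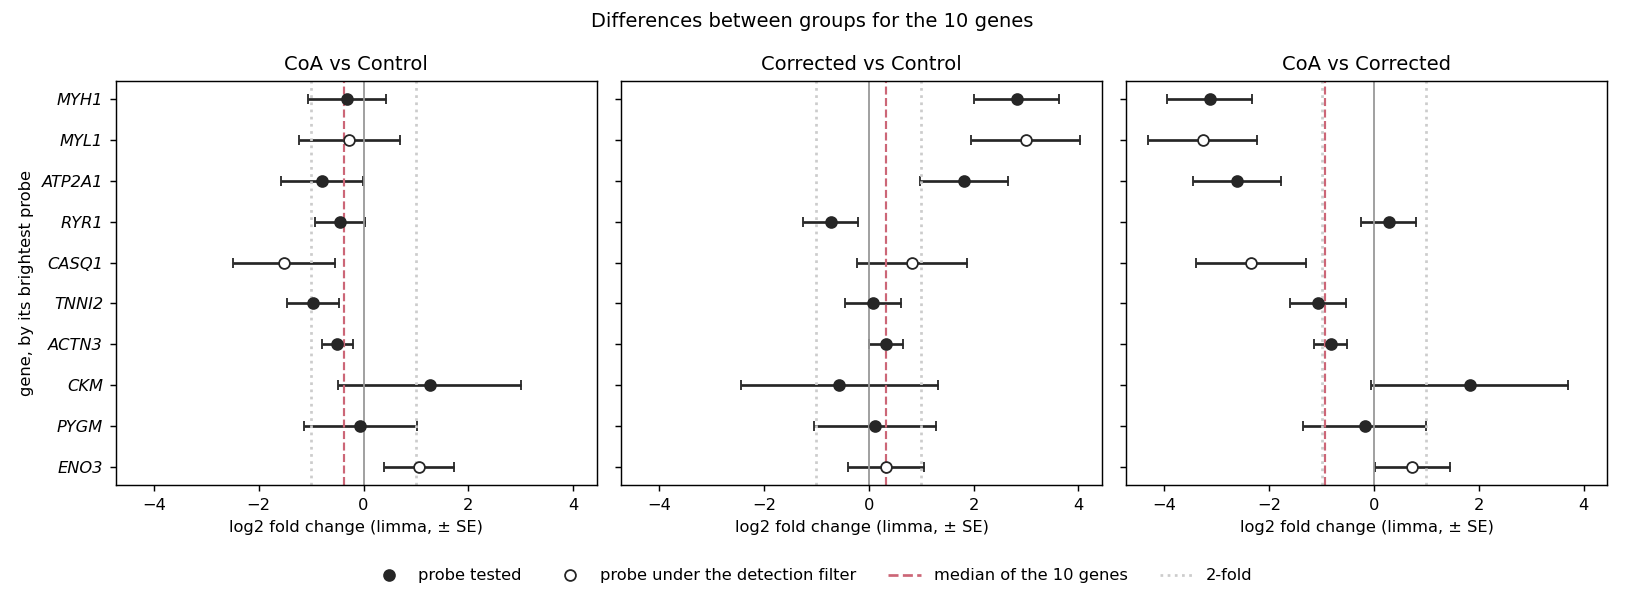
Log2 fold change (horizontal axis) with its standard error from limma for the brightest probe of each gene in the 3 comparisons. Filled circles were tested, open circles missed the detection filter, the dashed line is the median of the 10 genes and dotted lines mark 2-fold. The medians are -0.38, 0.33 and -0.94, and the widest error bars belong to CKM.

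Over the 10 genes, tested or not, the log2 fold changes had a median of -0.38 in CoA vs Control (8 below 0 and 2 above), 0.33 for Corrected vs Control (2 below and 8 above) and -0.94 for CoA vs Corrected (7 below and 3 above). The medians over all probes were 0.06, 0.03 and 0.02. With arrays scaled by their 75th percentile instead, the all-probe medians moved to 0.29, 0.19 and 0.11, and the medians of the 10 genes to -0.26, 0.45 and -0.97. With that scaling ATP2A1 also passed in Corrected vs Control, at 2.10, and TNNI2 in CoA vs Corrected, at -1.06.

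The count for CoA vs Control depended on the arrays and their weights. With all 12 arrays and a weight for each array, 3 of the 7 genes had an adjusted p under 0.05 in limma, all lower in CoA: ATP2A1 at -1.25 (adjusted p = 0.0125), TNNI2 at -0.79 (adjusted p = 0.0386) and ACTN3 at -0.81 (adjusted p = 0.00478). That setting passed 10931 of the 27283 tested probes, so the 3 genes are read against that count. Of the 3, ATP2A1 alone was past 2-fold.

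The slide, as taken from the scan time, bore on Corrected vs Control. Corrected replicate 2, with the highest MYH1, MYL1 and ATP2A1, shared its scan time with Control replicates 1, 2 and 4. Corrected replicates 1 and 4 shared theirs with no other array used, and Control replicate 3 had a scan time of its own. With the slide so taken as a fixed block, the difference rested on Corrected replicate 2 alone. It was 5.30 for MYH1, 6.19 for MYL1 and 4.18 for ATP2A1. Another assignment of arrays to slides could give other values. Corrected replicate 1, the other high array, and Corrected replicate 4, with low MYL1 and ATP2A1, shared a scan time as well.

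Other genes of skeletal muscle were taken from a list of 64 symbols, of which 27 had a probe with a symbol and 21 were tested. In CoA vs Control 3 passed as higher, MYH3, an embryonic myosin heavy chain, TNNC2, the fast troponin C, and JPH1, a junction protein, where 3.59% of all tested probes passed as higher. In Corrected vs Control 3 passed as higher, TNNC2, MYL11, the regulatory light chain of fast myosin, and SLN, sarcolipin, a small regulator of calcium pumps such as ATP2A1, where 2.41% of all tested probes did. In CoA vs Corrected 0 of the 21 passed (limma, criterion as above), with 0 at an adjusted p under 0.05. The list's medians were 0.52, 0.45 and 0.22 in the 3 comparisons, beside -0.38, 0.33 and -0.94 for the 10 genes. CACNA1S, the voltage sensor that opens RYR1, and MYLK2, the myosin light chain kinase of skeletal muscle, were not above background on any array used.

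The list moved by array as well. On CoA replicate 2, 8 of its 27 genes were above background and more than 4-fold above their medians, among them SRL at 13.55, CKMT2, the mitochondrial creatine kinase of muscle, at 14.17, PPP1R3A, which targets a phosphatase to glycogen, at 8.67, and TRDN, which links RYR1 to CASQ1, at 8.74. Its summed signal was 94340 there, against 12610 to 28280 on the other arrays used. On Corrected replicates 1 and 2, where MYH1, MYL1 and ATP2A1 were high, 0 of the 27 were that far above their medians. The summed signal, led by the brightest genes, was 18920 and 14940. MYL11 and SLN of this list were still highest on Corrected replicate 2 among the arrays used, at 6.90 and 9.59, though under 4-fold above their medians. On Control replicate 1, 3 of the 27 were more than 4-fold above their medians, MYOG at 8.73, FBP2, the muscle fructose bisphosphatase, at 5.55, and CKMT2 at 8.38.

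Slow skeletal and cardiac genes were high on CoA replicate 2 too. Of 33 symbols 10 had a probe, and 5 of these were above background and more than 4-fold above their medians on that array, TNNC1, CASQ2, RYR2, KCNE1 and ANKRD1, with a summed signal of 150200 against 16050 to 70850 on the others used. On Corrected replicates 1 and 2 there were 0. In CoA vs Control TNNC1 and PLN passed as higher of 9 tested, and in Corrected vs Control TNNC1. Each list of the other cell types held 0 or 1 gene so raised on Corrected replicates 1 and 2 (ADIPOQ and MMP12, both on replicate 1). In CoA vs Control those lists gave 2 of 5 adipocyte genes lower, 1 of 1 T cell gene lower, 2 of 5 nerve, 1 of 4 macrophage, 1 of 8 fibroblast and matrix and 1 of 9 smooth muscle genes higher, and 0 of 6 endothelial and 0 of 1 brown adipocyte genes, where 5.22% of all tested probes passed as lower and 3.59% as higher. In Corrected vs Control 1 gene of each passed, lower for adipocyte and T cell and higher for the others, with 0 again for endothelium and brown adipocyte, where 2.99% of all tested probes passed as lower and 2.41% as higher. In CoA vs Corrected 1 nerve gene alone passed, as higher, where 1.44% of all tested probes did. Summed signals on CoA replicate 2 against the other CoA arrays, for the whole smooth muscle list, were 119400 against 194000 to 238500, a sum led by its brightest genes, while the median of its 9 genes was 1.23 above their own medians on that array. Their part in the results was not tested.

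**Figure D5:**
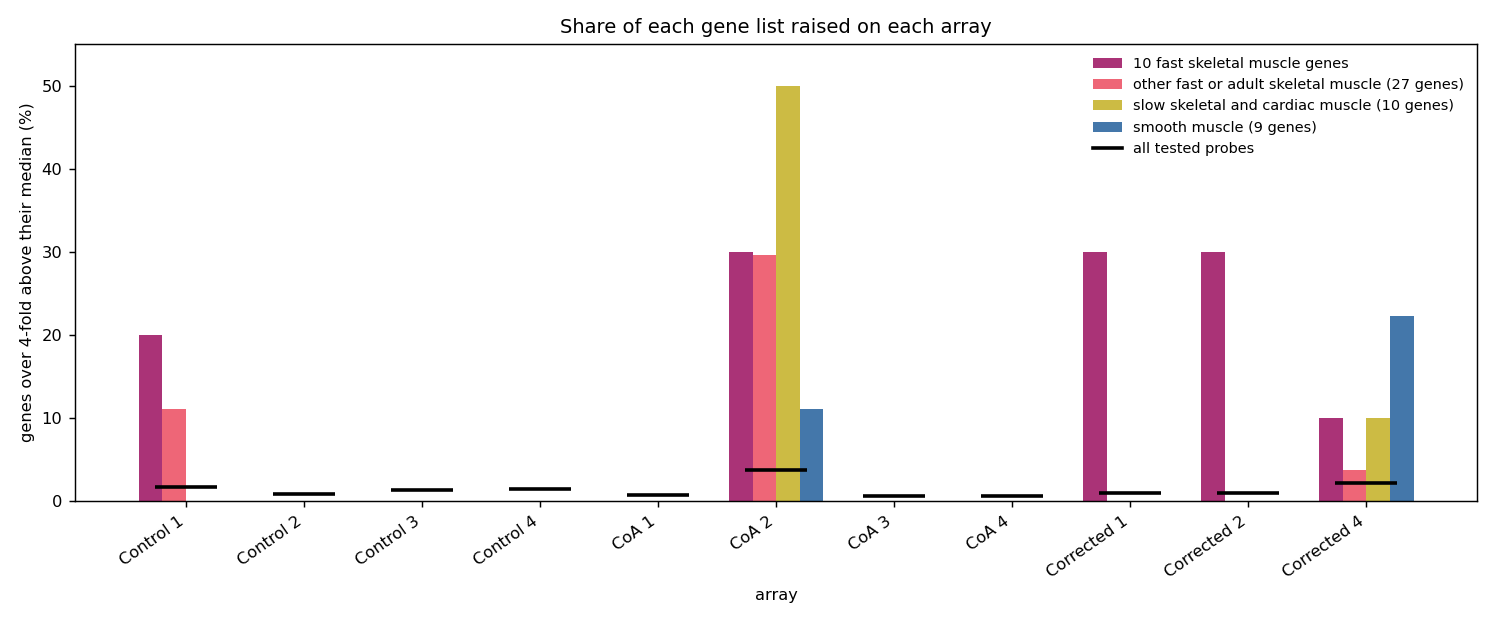
Share of genes (percent, vertical axis) above background and over 4-fold above their own median on each of the 11 arrays used, for the 10 fast skeletal muscle genes and 3 other lists, with black lines for all tested probes. On Corrected replicates 1 and 2 only the 10 genes show a bar (3 of 10), while on CoA replicate 2 so do the other skeletal (8 of 27), slow and cardiac (5 of 10) and smooth muscle (1 of 9) lists. MYL11 and SLN of the other skeletal list were highest on Corrected replicate 2, but under 4-fold above their medians. The bars include genes that were not tested, the black lines do not.

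Of 28 symbols listed as paralogues of the 10 genes, 7 had a probe, all tested. MYH11, the smooth muscle myosin heavy chain, ran from 12.46 to 14.55 on the 11 arrays, and ATP2A2, the calcium pump of smooth and cardiac muscle, from 13.51 to 15.54. Neither passed in any comparison. Of the 7 paralogues, 0 passed against Control, where 8.81% (CoA) and 5.40% (Corrected) of all tested probes did. In CoA vs Corrected 1 passed as lower, where 1.33% of all tested probes did. It was CKB, the creatine kinase of brain and smooth muscle, lower in CoA by 1.15 (SE 0.30, limma adjusted p = 1.00). CKB gave 11.06, 10.46, 11.28 and 11.53 in CoA and 12.56, 12.12 and 12.01 in Corrected, with no overlap, as for 4.20% of all tested probes. CKM, its muscle counterpart, gave 1.83 (SE 1.88) in the same comparison. On CoA replicate 2, where CKM peaked, 3 of the 7 were more than 4-fold above their medians, as were 3.78% of all tested probes. These were RYR2, CASQ2 and CKMT2, the last at 14.17 there and at 3.39 to 8.38 on the other arrays used. RYR2 and CASQ2, the cardiac counterparts of RYR1 and CASQ1, were highest on CoA replicate 2 at 14.01 and 14.50, where RYR1 was at 4.52 and no CASQ1 probe was above background.

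Among 1074 other gene symbols, the 5 most like the mean of the 10 genes over the 11 arrays were MYL11 (Pearson r = 0.83), SLN (0.78), ORYCUNV1R1616 (0.73), ITGA2B (0.73) and OR51I2 (0.72). The points share their arrays and the mean is led by the few bright signals, so these values are a description. MYL11 gave 4.87 to 5.41 in Control, 5.10 to 6.02 in CoA, and 6.04, 6.90 and 5.27 on Corrected replicates 1, 2 and 4, so that Corrected replicate 2 was again its highest array. SLN gave 7.15 to 7.72 in Control, 7.38 to 9.49 in CoA, and 8.35, 9.59 and 8.89 in Corrected, where CoA replicate 2 and Corrected replicate 2 were the 2 highest.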

How the data were processed

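Scanner files from Agilent Feature Extraction 11.0.1.1, deposited for 12 single-dye arrays with 1 rabbit each, were the start. The deposited processed signal is an intensity with background subtracted within the array and not normalized between arrays. The deposited median intensities of spot and local background are uncorrected and served an alternative only. Control spots and outlier-flagged spots were left out, spots of a probe were averaged, and log2 values were quantile normalized over 12 arrays, as the study's methods state. The few arrays per group and, for dim probes, the background set the precision. Probes flagged positive, significant and well above background on at least 8 of 12 arrays were tested.

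Symbols came from RefSeq's rabbit gene table (assembly mOryCun1.1) by accession, for 3368 of 43603 probes (7.72%). No coordinates are given, since the array's design is older. The list symbol MYLPF was matched to MYL11, its name there. "At least" folds set each array of the lower group to the higher of its own signal and the lowest signal flagged above background on that array. The higher group entered at its own signals, also on arrays where it was not above background, as for MYL1 and ENO3.

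The 11 arrays entered 1 limma 3.58.1 model (R 4.3.3) with moderated variances and Benjamini-Hochberg adjustment over 27283 probes. The replicates were taken as separate rabbits. Permutation tests were exact and two-sided. Simulated data in which 200 probes were changed served to test the script. Random blocks used statmod 1.5.0, and counts and figures used pandas 2.3.3, numpy 2.4.6 and matplotlib 3.10.9 under Python 3.11.15. The genes, marker lists, tests and named genes (the 10 genes, the muscle and paralogue lists, and the 5 symbols most like the 10) were chosen with earlier results of these data known. Lists for smooth muscle, endothelium, fibroblasts and matrix, adipocytes, brown adipocytes, T cells, macrophages and nerve served as cell type markers. Alternatives covered scaling to the 75th percentile, normexp with an offset of 50 on median signals, detection filters, arrays used, array weights, blocks, probe averaging and leaving out each array.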

Additional observations from a re-analysis of the deposited data

Results flagged for a closer look

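Of the 20 sets of 4 arrays examined (10 genes in Control and in CoA), 3 held an array far from the other 3. Normal and independent values would give about 1 in 20, but these sets share their arrays and are not independent. The share over all tested probes was not computed. CKM reached 13.28 on CoA replicate 2, with the other CoA arrays at 3.87 to 4.79. PYGM reached 8.67 on Control replicate 1, with the other Control arrays at 3.90 to 4.50. RYR1 was low on Control replicate 2, at 3.90, with the other Control arrays at 5.21 to 5.33. Among the 37 other skeletal, slow and cardiac muscle genes, 11 of 74 sets held such an array, a share like that of the 10 genes. In 8 of these it was CoA replicate 2 as the highest.

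On Corrected replicate 3, the array left out by the study, TNNI2 reached 7.34 and ACTN3 reached 7.92, above background and above every Control array. No other gene of the 10 did so, and MYH1, MYL1 and ATP2A1 were not above background there, at 4.31, 1.43 and 4.67. That array had the lowest share of spots well above background, 45.6%, and its part in these values was not tested.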

How the results depend on the processing

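The count of the 10 genes past 2-fold with an unadjusted p under 0.05 (0 in CoA vs Control, 1 in Corrected vs Control and 2 in CoA vs Corrected) was most open to the filter and the arrays used. Without the detection filter it was 0, 2 and 4, and with detection required on all 12 arrays, where only TNNI2 and ACTN3 were tested, 0, 0 and 0. With all 12 arrays it was 0, 0 and 4, as MYH1 then gave 2.02 in Corrected vs Control (limma adjusted p = 0.383), its unadjusted p no longer under 0.05, and with array weights added 1, 2 and 3. The 75th percentile scaling gave 0, 2 and 3, the slide as a fixed block 2 for Corrected vs Control (it could not be fitted for the others), the slide as a random block 0, 1 and 3, and the mean over all probes of a gene 0, 1 and 1, as ATP2A1 then missed the detection filter. Leaving out each array in turn gave 0 to 1, 1 to 2 and 2 to 3: 1 for CoA vs Control without Control replicate 2 or CoA replicate 3 (TNNI2), and 2 for Corrected vs Control without Corrected replicate 4 (ATP2A1 added). MYH1 and ATP2A1 stayed past the criterion in CoA vs Corrected when any of the 11 arrays was left out. Normexp, only the groups compared, and Control replicates 3 and 4 as 1 sample kept 0, 1 and 2. The medians over the 10 genes kept their sign in every setting run, and leaving out an array gave -0.64 to -0.27, 0.18 to 0.91 and -1.11 to -0.72.

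Over all 27283 tested probes the count past the criterion was 2404, 1474 and 754 (8.81%, 5.40% and 2.76%). It moved by over 1.5 times in the settings that follow, to 935, 558 and 117 with normexp. Without the filter it was 3733, 2430 and 1463, but of 43603 probes (8.56%, 5.57% and 3.36%). With detection on all arrays it was 1277, 786 and 316, but of 16927 probes (7.54%, 4.64% and 1.87%). In those 2 settings the shares moved less than the counts. With all 12 arrays it was 2854 and 1162 (Corrected vs Control, CoA vs Corrected), and with array weights 5211 and 2546 (against Control). The slide as a fixed block gave 548. The replicate block and the random slide block gave 1158 and 1207 (CoA vs Corrected). Control replicates 3 and 4 as 1 sample gave 1564 (CoA vs Control). Leaving out an array gave 1545 to 3536, 765 to 2400 and 641 to 1778.

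Over 670 comparisons of a gene's value with an alternative, 632 stayed on their side of the criterion. Of the rest 21 fell under it, 17 came past it and 0 reversed a value past it. Most values were under the criterion to begin with, and leaving out an array of the third group cannot move a fold change. The 632 is thus no measure of stability. Values under the criterion changed sign 33 times. The replicate numbers were not taken as pairs. The correlations of same-numbered deviations were -0.13 to 0.01, -0.07 to 0.45 and -0.44 to -0.13 in the 3 comparisons. These cannot decide on pairing, since arrays of different numbers were not correlated. The 0.45 came from Control and Corrected replicates 2, which also shared a scan time. A fit with the replicate block gave counts of 0, 1 and 3 (TNNI2 added, at -1.24 in CoA vs Corrected) and medians of -0.38, 0.36 and -1.07. Dim signals limit what can be read of MYL1 and ENO3, whose single probes were above background on 4 and 1 of the 12 arrays, and of CASQ1.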
